A study of Mus musculus with 12 samples.

Results

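The 10 genes described here, Ctgf, Cyr61, Ccdc80, Axl, F3, Nt5e, Crim1, Ankrd1, Amotl2 and Myof, are targets of the transcriptional co-activators YAP and TAZ and belong to a published signature of 22 target genes. They were found by symbol, and 10 of 10 were present among the 41128 genes of the count table and passed the filter on low counts in hepatocytes and in livers. The series asked about YAP and TAZ in liver tissue around tumours, and its 12 mouse libraries of polyadenylated RNA fall into 5 groups. Hepatocytes were purified on a Percoll gradient from untreated mice (3 libraries, called untreated) or from tissue around tumours (3 libraries, called peritumoral). Both hepatocyte groups carry the genotype label Lats1tm1.1Jfm/RjoJ; Lats2tm1.1Jfm/RjoJ, which names floxed alleles of the YAP kinases Lats1 and Lats2. They are titled wild type, and the sources used here do not say whether any Cre was present. Tumours followed a hydrodynamic tail injection at an age of 8 weeks with SB11, a transposase (1 µg), myc-NICD, the active part of Notch (20 µg), and myr-ha-Akt, an activated Akt (4 µg), and grew for 8 weeks, although the age label reads 8 weeks for all 12 libraries. Livers came from the stock CD-1 IGS Mouse (Charles River): 2 control libraries, 2 taken 24 h and 2 taken 48 h after 1 intraperitoneal injection of thioacetamide (TAA), a toxin that injures hepatocytes around the central vein. The labels call the livers Percoll hepatocytes too, while the series design calls them livers. Hydrodynamic injection reaches a part of the hepatocytes, and no label says that peritumoral tissue was free of injected or tumour cells.

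YAP and TAZ are held in the cytoplasm when the Hippo kinases phosphorylate them and, when released, bind TEAD transcription factors in the nucleus and switch on genes for matrix proteins, surface receptors and cytoskeletal proteins. In liver, this pathway is known for its part in organ size, regeneration after injury and bile duct fate, and hepatocytes at rest keep YAP activity low. Stellate cells, endothelial cells and bile duct cells also use YAP and TAZ and express several of the same targets.

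TEAD factors bind the word GGAATG. The 250 bases before the RefSeq start of each gene were therefore searched for it and its reverse complement CATTCC. RefSeq promoters on GRCm38.p6 were found for 8 of the 10 genes. The gene positions given below are from GENCODE, whose starts can differ from those of RefSeq. The windows of Ankrd1, Amotl2 and Nt5e lie inside the GENCODE span of the gene, not before it. The word stood in 5 of the 8, against 12.6% of all 32851 promoters of the same length in that table. The 5 are shown because they hold the word, in capitals, on the sense strand as GGAATG or on the other strand as CATTCC, each 5′ to 3′ towards the start.
Ankrd1 (chr19:36119845-36120094, minus strand): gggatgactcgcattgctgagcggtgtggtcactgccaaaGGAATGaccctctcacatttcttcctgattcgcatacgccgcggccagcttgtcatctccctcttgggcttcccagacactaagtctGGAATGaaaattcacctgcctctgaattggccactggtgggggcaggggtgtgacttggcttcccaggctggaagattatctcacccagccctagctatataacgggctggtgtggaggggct
Cyr61 (chr3:145649986-145650235, minus strand): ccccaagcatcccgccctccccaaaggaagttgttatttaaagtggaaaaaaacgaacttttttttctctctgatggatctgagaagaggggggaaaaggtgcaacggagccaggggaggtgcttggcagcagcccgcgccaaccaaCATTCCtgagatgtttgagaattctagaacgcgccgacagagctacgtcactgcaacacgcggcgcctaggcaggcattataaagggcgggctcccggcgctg
Axl (chr7:25788734-25788983, minus strand): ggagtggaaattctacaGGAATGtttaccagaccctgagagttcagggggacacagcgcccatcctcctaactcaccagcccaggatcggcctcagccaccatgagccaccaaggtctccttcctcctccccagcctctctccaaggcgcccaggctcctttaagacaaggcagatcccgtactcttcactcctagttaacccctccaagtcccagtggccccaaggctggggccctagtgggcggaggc
Crim1 (chr17:78199998-78200247, plus strand): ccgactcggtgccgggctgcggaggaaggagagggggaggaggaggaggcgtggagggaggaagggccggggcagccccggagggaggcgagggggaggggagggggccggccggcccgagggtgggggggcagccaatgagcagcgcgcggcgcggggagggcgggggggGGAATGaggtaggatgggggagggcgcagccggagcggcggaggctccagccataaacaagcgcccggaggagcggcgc
Amotl2 (chr9:102717554-102717803, plus strand): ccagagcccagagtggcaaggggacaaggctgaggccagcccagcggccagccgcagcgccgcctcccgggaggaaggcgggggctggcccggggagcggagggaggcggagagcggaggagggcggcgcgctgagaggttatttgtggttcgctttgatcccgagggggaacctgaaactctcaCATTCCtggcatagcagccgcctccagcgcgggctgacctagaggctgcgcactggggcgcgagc
In Ankrd1 the word stood 2 times, at 210 to 205 and at 123 to 118 bases before the start. It began 103 bases before the start of Cyr61, 233 before that of Axl, 79 before that of Crim1 and 65 before that of Amotl2. A second word, TGANTCA, which AP-1 factors bind and which often neighbours TEAD words in enhancers, was searched on both strands and stood 2 times in the promoter of F3. It occurred in 6.75% of all promoters and in none of the other 7 promoters searched. The F3 window is shown because it is the 1 that holds this word, in capitals.
F3 (chr3:121723287-121723536, plus strand): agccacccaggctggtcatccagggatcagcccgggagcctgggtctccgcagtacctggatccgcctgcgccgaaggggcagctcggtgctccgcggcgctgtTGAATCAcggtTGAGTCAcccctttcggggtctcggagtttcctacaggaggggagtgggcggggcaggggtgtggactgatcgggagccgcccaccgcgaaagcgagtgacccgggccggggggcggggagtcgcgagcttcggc
The windows of Myof and Nt5e held neither word in these 250 bases. Ctgf and Ccdc80 were not searched. The letters are a description of the windows and show no binding.

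Hepatocyte libraries held 16228747 to 18522324 counts in all, and liver libraries 9640845 to 13692235. Markers of hepatocytes were high in every library, summing to 58946 CPM at the lowest. Peritumoral replicate 2 stood apart: its 10 biliary markers summed to 7511 CPM, against 1098 and 801 CPM in replicates 1 and 3. Of these sums Spp1 alone held 6836, 948 and 700 CPM, and replicate 2 was highest for the other biliary markers too. Replicate 2 also held 9770 counts of Xist, which coats the inactive X chromosome, where each other hepatocyte library held 0 to 3. The liver libraries held 2516 to 5659. Lats1 and Lats2, whose alleles are floxed in both hepatocyte groups, were present in every library, and neither passed the test in peritumoral hepatocytes, at log2 fold changes of -0.23 ± 0.16 (adjusted p = 0.318) and 0.41 ± 0.17 (adjusted p = 0.112). The labels do not tie the libraries of a group to different animals, and the p-values therefore measure a spread between libraries that may be technical. Levels are CPM, counts relative to the TMM-scaled library total, given per library or as mean ± SD. Fold changes are log2 ± SE, and the adjusted p-values come from edgeR (quasi-likelihood, Benjamini-Hochberg over all genes tested), with a call below 0.05.

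Peritumoral hepatocytes held more transcript of all 10 genes than untreated hepatocytes (n = 3 libraries each). Of the 10, 10 rose, where 19.0% of 13442 genes rose in the same test and 10.2% fell. Their median log2 fold change was 2.49, against -0.02 over all genes tested. In 10 of 10, each peritumoral library lay above each untreated one, which held for 25.8% of all genes. The gains ran from 0.93 for Crim1 to 4.57 for Ccdc80. Without peritumoral replicate 2, the hepatocyte library that stood apart in Xist, 9 of the 10 genes passed and the median was 2.50.

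**Figure D1:**
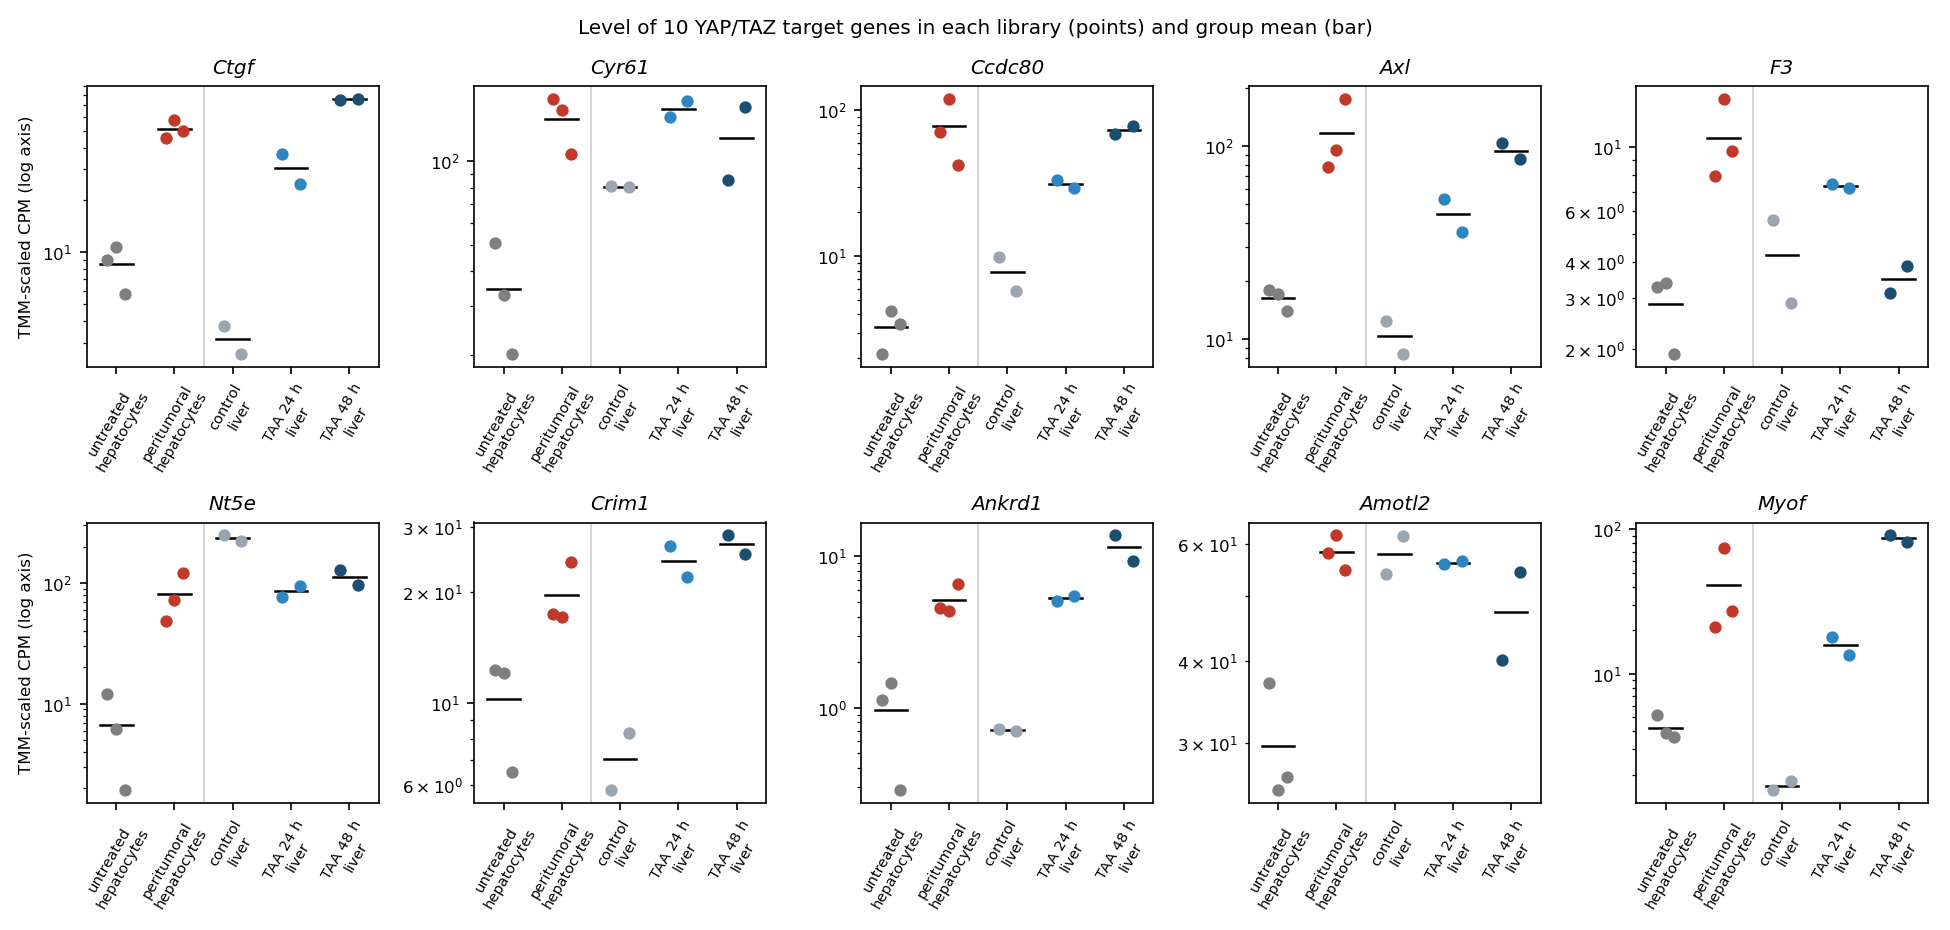
Level of each of the 10 genes in TMM-scaled CPM (log axis) in every library (points) and the group mean (bar), with hepatocytes left and livers right of the grey line. Peritumoral points lie above untreated points for all 10 genes, while Nt5e is highest in control livers, at 248 and 224 CPM.

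Among the secreted matrix proteins, Ccdc80, which binds the extracellular matrix, stood at 2.15, 4.24 and 3.42 CPM in untreated replicates 1 to 3 and at 71.5, 120.1 and 41.9 CPM in peritumoral replicates 1 to 3. It was near the bottom of the 10 genes in untreated hepatocytes and had the highest fold change of the 10, 4.57 ± 0.50 (adjusted p = 0.0033), or 4.13 without peritumoral replicate 2. Ctgf, also named Ccn2, is a matricellular protein that promotes fibrosis. It stood at 9.05, 10.7 and 5.77 CPM in untreated and 45.6, 57.9 and 49.6 CPM in peritumoral libraries, a rise of 2.59 ± 0.25 (adjusted p = 0.00285). The 3 peritumoral values of Ctgf lay close together, the highest 1.27 times the lowest. On GRCm38 Ctgf (ENSMUSG00000019997) is on the plus strand of chromosome 10, from 24595442 to 24598683, and 23.2% of its exon length overlaps exons of Gm15270 on the opposite strand, and reads could be shared, since no source used here gives the strand setting of the counting. Cyr61, or Ccn1, the related matricellular ligand of integrins, stood at 50.5, 33.0 and 20.2 CPM in untreated and 168, 153 and 106 CPM in peritumoral libraries. It rose by 2.05 ± 0.34 (adjusted p = 0.0082), and the groups did not overlap although the untreated values spread over 2.50 times. Cyr61 (ENSMUSG00000028195) is on the minus strand of chromosome 3, from 145646976 to 145649981, and Ccdc80 (ENSMUSG00000022665) on the plus strand of chromosome 16, from 45093402 to 45128077.

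The 4 genes of surface proteins also rose. Axl, a receptor tyrosine kinase for the ligand Gas6 (ENSMUSG00000002602, chromosome 7, 25757273 to 25788705, minus strand), stood at 17.9, 17.2 and 13.9 CPM in untreated and at 77.8, 95.5 and 175 CPM in peritumoral libraries, a rise of 2.82 ± 0.32 (adjusted p = 0.00351). Replicate 3, not replicate 2, was its highest peritumoral library. Nt5e, the surface enzyme CD73 that makes adenosine from AMP (ENSMUSG00000032420, chromosome 9, 88327197 to 88372092, plus strand), stood at 11.99, 6.21 and 1.92 CPM in untreated and at 48.8, 72.8 and 121 CPM in peritumoral libraries. Its rise was 3.60 ± 0.66 (adjusted p = 0.0104). Untreated values of Nt5e spread over 6.23 times, more than those of the other 9 genes, and its fold change was 4.30 without untreated replicate 1. Without untreated replicate 2 the call on Nt5e was lost (adjusted p = 0.0545). F3, or tissue factor, the receptor that starts coagulation (ENSMUSG00000028128, chromosome 3, 121723537 to 121735048, plus strand), stood at 3.28, 3.39 and 1.92 CPM in untreated and 7.97, 14.7 and 9.71 CPM in peritumoral libraries, a rise of 1.92 ± 0.34 (adjusted p = 0.00979). Crim1, a transmembrane protein that binds bone morphogenetic proteins (ENSMUSG00000024074, chromosome 17, 78200248 to 78376592, plus strand), went from 12.3, 12.1 and 6.49 CPM to 17.4, 17.2 and 24.2 CPM. Its groups did not overlap, but its rise of 0.93 ± 0.27 was the smallest of the 10 (adjusted p = 0.0441). Leaving out any 1 of the 6 libraries ended the call on Crim1 (adjusted p = 0.0641 to 0.126).

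Of the 3 intracellular proteins, Myof, or myoferlin, a membrane repair and fusion protein (ENSMUSG00000048612, chromosome 19, 37899036 to 38043577, minus strand), stood at 5.15, 3.90 and 3.63 CPM in untreated and 20.9, 74.5 and 27.0 CPM in peritumoral libraries. Replicate 2 decided its size: the rise of 3.28 ± 0.53 (adjusted p = 0.00752) was 2.51 without that library (adjusted p = 0.00205). Ankrd1, an ankyrin repeat protein that acts in the nucleus and, in muscle, in the sarcomere (ENSMUSG00000024803, chromosome 19, 36111961 to 36120099, minus strand), had the lowest counts of the 10. It stood at 1.13, 1.47 and 0.285 CPM in untreated libraries, from 20, 26 and 4 counts, and at 4.57, 4.36 and 6.55 CPM in peritumoral ones, from 78, 113 and 116 counts. Its rise of 2.40 ± 0.51 (adjusted p = 0.0166) lost its call without untreated replicate 1 (adjusted p = 0.0710). Amotl2, a junction protein of the angiomotin family that binds YAP and is itself a target (ENSMUSG00000032531, chromosome 9, 102716672 to 102733418, plus strand), went from 36.9, 25.5 and 26.7 CPM to 58.1, 61.9 and 54.9 CPM. The rise of 0.97 ± 0.18 (adjusted p = 0.0110) was small beside those of Ctgf and Axl, with the peritumoral values within 1.13 times of each other, and lost its call without untreated replicate 2 (adjusted p = 0.0568). Across the 10 genes, peritumoral replicate 2 was the highest library of its group in CPM for 5, replicate 3 for 4 and replicate 1 for 1. In RPM, without scaling factors, replicate 2 was also the highest for Cyr61 (214, against 175 in replicate 1). The same held for Crim1 (24.03, against 23.97 in replicate 3).

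Markers of other liver cells rose beside the target genes, and in bulk RNA more cells of a type and more RNA per cell cannot be told apart. All 10 endothelial markers rose, and their summed level went from 237 to 345 CPM in untreated to 949 to 1823 CPM in peritumoral libraries. Of 10 stellate cell and fibroblast markers 8 rose, with sums of 57.4 to 115 against 737 to 1780.4 CPM. Of 10 biliary markers 8 rose, with sums of 51.9 to 85.7 against 801 to 7511 CPM, and no biliary marker was at 0 in a group. Spp1 held most of the peritumoral sums. Of 9 macrophage markers tested 8 rose, with sums of 204 to 363 against 1319 to 3994 CPM. All 5 mesothelial markers rose (3 to 5 with 1 library left out), from sums of 1.36 to 2.09 CPM to 33.1 to 178 CPM, and all 6 neutrophil markers (4 to 6), from 1.14 to 3.16 CPM to 15.3 to 35.8 CPM. None of 5 lymphocyte markers had enough counts to be tested, at sums of at most 5.87 CPM. All 9 immediate early and dissociation genes rose (4 without untreated replicate 1 or without untreated replicate 2), from sums of 1741 to 2395 CPM to 5563 to 5818 CPM. None of 9 hepatocyte markers passed by edgeR (0 higher and 1 lower at an unadjusted p under 0.05), while by DESeq2 1 rose and 3 fell, at sums of 91532 to 114821 against 58946 to 145138 CPM. The highest biliary, mesothelial and stellate sums were those of peritumoral replicate 2, which was also highest for Ctgf, Ccdc80, Myof, F3 and Amotl2. Within the stellate list replicate 2 was highest for Col1a1, Col1a2, Col3a1 and Acta2. It was lowest for Dcn, Lrat, Reln, Des and Pdgfrb, with Lrat at 2.20 CPM against 12.4 and 12.9 CPM. The highest macrophage and endothelial sums were those of replicate 3, which was highest in CPM for Axl, Nt5e, Crim1 and Ankrd1. The part of these cells in the rise of the 10 genes was not tested.

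**Figure D2:**
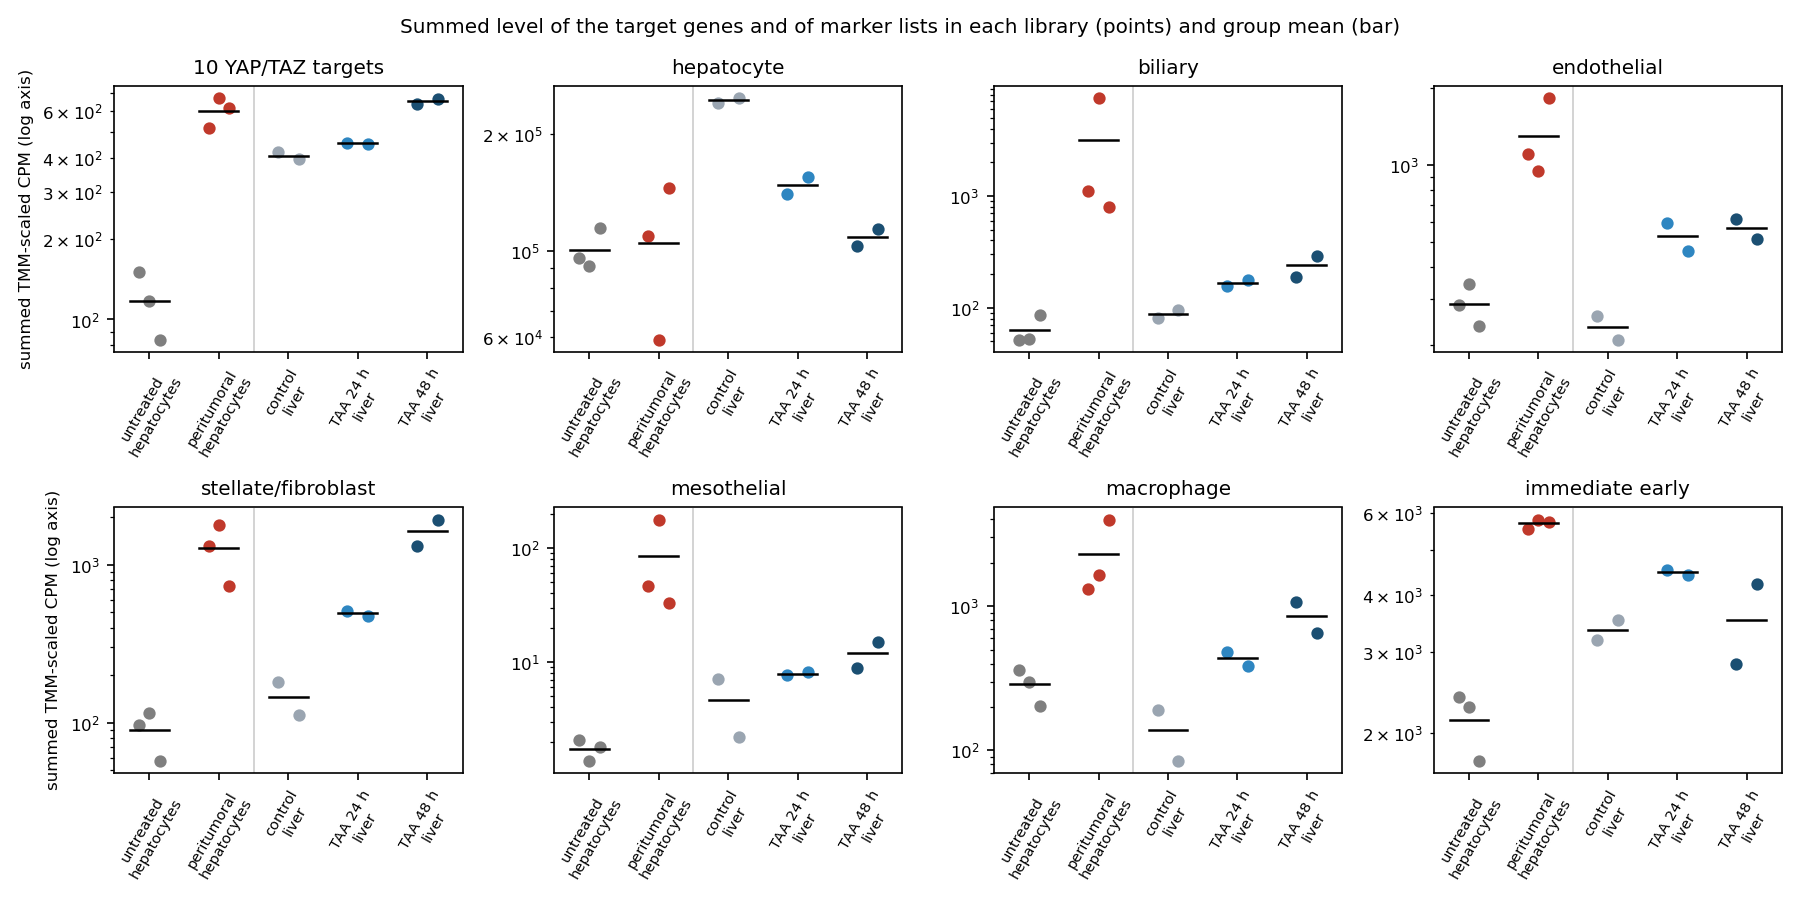
Summed TMM-scaled CPM (log axis) of the 10 target genes and of 7 marker lists in every library (points) with group means (bars). The target sum was 84.2 to 150.4 CPM in untreated and 520.5 to 672 CPM in peritumoral libraries, and the non-hepatocyte sums were higher in peritumoral libraries too.

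In livers 24 h after TAA, 7 of the 10 genes rose and 1 fell against control livers (n = 2 libraries each), where 21.3% of 13497 genes rose and 20.5% fell. The median of the 10 was 1.78, against 0.02 over all genes. At 48 h, 6 rose and 1 fell, where 25.0% of genes rose and 23.9% fell, and the median was 2.48 against -0.03. Both times were tested against the same control libraries, so the comparisons are not independent. Both TAA libraries lay above both control libraries for 8 of the 10 genes at 24 h, against 43.9% of all genes, and for 7 at 48 h, against 40.9%. The gene that lay below control in each library, as 30.4% and 35.1% of all genes did at 24 h and 48 h, was Nt5e. Without scaling factors the median over all genes moved to 0.53 at 24 h and 0.68 at 48 h, and the share of rises among called genes from 51.0% to 83.3% and from 51.1% to 88.8%.

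Of the matrix genes, Ctgf stood at 3.73 and 2.59 CPM in control livers, at 36.6 and 24.8 CPM at 24 h and at 74.9 and 76.4 CPM at 48 h. No group overlapped with another, and Ctgf rose by 3.16 ± 0.26 (adjusted p = 0.000602) and 4.50 ± 0.27 (adjusted p = 0.000179). Ccdc80 went from 9.84 and 5.79 CPM to 33.5 and 29.4 CPM at 24 h and 69.3 and 78.1 CPM at 48 h, rises of 1.89 ± 0.25 (adjusted p = 0.00192) and 3.16 ± 0.26 (adjusted p = 0.000329). Cyr61, of the same family as Ctgf, stood at 81.1 and 80.9 CPM in control livers, 144 and 165 CPM at 24 h, and 85.7 and 156 CPM at 48 h. Its rise of 0.81 ± 0.26 at 24 h (adjusted p = 0.0461) was not called once any one of the 4 libraries compared was removed (adjusted p = 0.116 to 0.170). At 48 h it did not pass, at 0.50 ± 0.26 (95% interval -0.12 to 1.13, adjusted p = 0.156). Without scaling factors and by limma Cyr61 was called at 48 h, at 102 and 179 RPM against 61.1 and 60.9 RPM in control livers.

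Axl went from 12.3 and 8.38 CPM in control livers to 52.8 and 35.9 CPM at 24 h and 103 and 85.5 CPM at 48 h, rises of 1.98 ± 0.26 (adjusted p = 0.00195) and 3.11 ± 0.27 (adjusted p = 0.000382). Crim1 went from 5.80 and 8.28 CPM to 26.6 and 21.96 CPM and then 28.5 and 25.4 CPM, rises of 1.67 ± 0.22 (adjusted p = 0.00196) and 1.85 ± 0.22 (adjusted p = 0.000959). The TAA libraries of both genes lay above both controls. Nt5e fell: it stood at 248 and 224 CPM in control livers, 77.2 and 94.4 CPM at 24 h, and 127 and 96.0 CPM at 48 h. It fell by 1.58 ± 0.18 at 24 h (adjusted p = 0.00116) and by 1.16 ± 0.17 at 48 h (adjusted p = 0.00223). The fall at 48 h was 0.45 on the log2 scale, and not called, when libraries were scaled by totals alone, and it was not called in a fit of all 12 libraries or by limma either. The fall at 24 h was not called in the fit of all 12 libraries (adjusted p = 0.115). F3 did not pass at 24 h (7.47 and 7.25 against 5.59 and 2.89 CPM, log2 fold change 0.68 ± 0.33, adjusted p = 0.139). Without scaling factors and by limma F3 was called at 24 h, at 7.51 and 7.08 against 4.22 and 2.18 RPM. At 48 h F3 was at 3.14 and 3.87 CPM, within the control range (-0.35 ± 0.34, adjusted p = 0.431, or 0.36 without scaling factors).

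Myof had the highest fold change of the 10 genes at 48 h. It went from 1.55 and 1.80 CPM in control livers to 17.97 and 13.5 CPM at 24 h and 91.0 and 82.3 CPM at 48 h, rises of 3.11 ± 0.20 (adjusted p = 0.000388) and 5.60 ± 0.22 (adjusted p = 0.000113). Its control libraries held 15 and 18 counts. Ankrd1, with 7 counts in each control library, went from 0.725 and 0.698 CPM to 5.09 and 5.45 CPM at 24 h and 13.8 and 9.36 CPM at 48 h, rises of 2.76 ± 0.32 (adjusted p = 0.00129) and 3.92 ± 0.31 (adjusted p = 0.000329). Amotl2 did not pass: it stood at 54.1 and 61.8 CPM in control livers, 56.0 and 56.5 CPM at 24 h, and 40.1 and 54.5 CPM at 48 h. Its log2 fold changes were -0.16 ± 0.17 (95% interval -0.57 to 0.25, adjusted p = 0.482) and -0.37 ± 0.17 (-0.78 to 0.04, adjusted p = 0.116), and both changed sign without scaling factors, to 0.35 and 0.34.

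**Figure D3:**
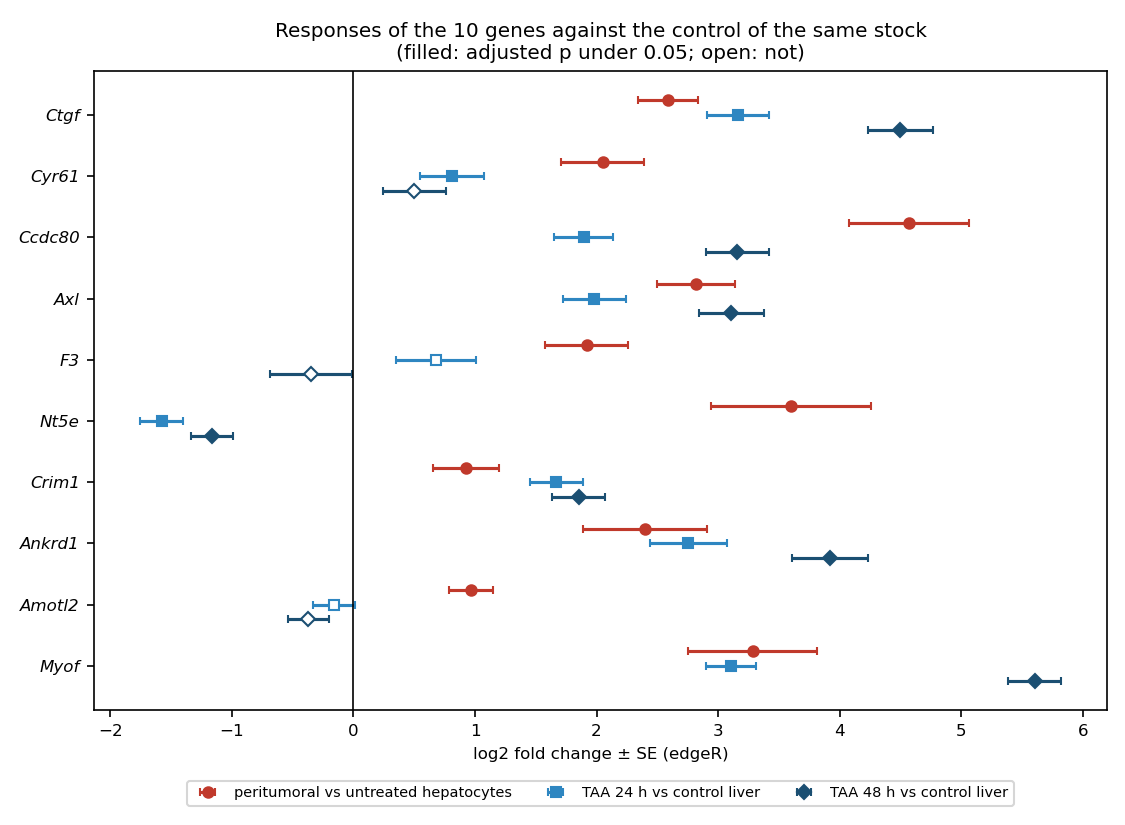
Log2 fold change ± SE (horizontal axis) of each gene in peritumoral hepatocytes, in livers 24 h after TAA and in livers 48 h after TAA, each against the control of its own stock, with filled symbols for an adjusted p under 0.05. Nt5e lies right of 0 in peritumoral hepatocytes, at 3.60, and left of it after TAA, at -1.58 and -1.16.

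After TAA, hepatocyte markers were lower, with sums of 140294 to 155070.0 CPM at 24 h and 102620.0 to 113909 CPM at 48 h against 241469 to 248225 CPM in control livers, and 4 of 9 fell at each time (2 to 4 at 24 h and 1 to 4 at 48 h with 1 library left out). Without scaling factors 3 fell and 1 rose at 24 h and 1 fell at 48 h, by limma 2 and 1 fell, in the fit of all 12 libraries 1 fell at each time, and by DESeq2 7 and 6 fell and 1 rose at 24 h. Cyp2e1, the enzyme of central hepatocytes that activates TAA, fell in each of these fits. Stellate cell and fibroblast markers were higher, with sums of 475 to 509 CPM at 24 h and 1315 to 1929 CPM at 48 h against 112 to 180.3 CPM, and 9 and 10 of 10 rose. Of 10 endothelial markers 7 rose at 24 h and 8 at 48 h (4 and 4 without control replicate 2), and of 9 macrophage markers 4 and 8 rose (2 to 6 and 6 to 8 with 1 library left out). Biliary sums reached 156 to 178 CPM at 24 h and 186 to 291 CPM at 48 h, against 81.2 to 94.8 CPM, with 4 of 9 tested markers risen at 24 h and 2 of 9 at 48 h (0 and 0 in the fit of all 12 libraries, and 4 and 8 without scaling factors). Mesothelial sums stayed at or under 14.9 CPM, with 1 of 4 risen at 48 h. All 6 neutrophil markers were at 0 counts in both control libraries and summed to 2.67 to 6.12 CPM after TAA, and lymphocyte markers to at most 1.34 CPM. The 1 lymphocyte marker that could be tested, Cd3e, rose at 24 h (adjusted p = 0.0491), a call lost without any one of the 4 libraries compared (adjusted p = 0.0637 to 0.135). Of 9 immediate early genes 2 rose and 2 fell at 24 h (1 to 4 and 0 to 2 with 1 library left out), and 2 rose at 48 h, while without scaling factors 7 and 5 rose. The part of these cells in the changes of the 10 genes was not tested.

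From 24 h to 48 h after TAA, 5 of the 10 genes rose and none fell, where 4.96% of genes rose and 2.36% fell, and the median was 0.77 against 0.01. The 5 were Myof at 2.50 ± 0.18 (adjusted p = 0.00983), Ctgf at 1.34 ± 0.23 (adjusted p = 0.0261), Ccdc80 at 1.27 ± 0.23 (adjusted p = 0.0321), Ankrd1 at 1.17 ± 0.25 (adjusted p = 0.0432) and Axl at 1.13 ± 0.25 (adjusted p = 0.0457). Both 48 h libraries lay above both 24 h libraries for these 5 and Nt5e, against 29.2% of all genes, and below them for F3 and Amotl2, against 33.3%. F3 stood at -1.03 ± 0.33 (adjusted p = 0.106), Nt5e at 0.41 ± 0.17 (adjusted p = 0.180), Cyr61 at -0.31 ± 0.26 (adjusted p = 0.491), Amotl2 at -0.21 ± 0.17 (adjusted p = 0.475) and Crim1 at 0.19 ± 0.21 (adjusted p = 0.613). With 2 libraries a group these calls rested on every TAA library: none of the 10 passed without 24 h replicate 1 or without 24 h replicate 2, and 1, Myof, passed without 48 h replicate 1 or without 48 h replicate 2. Between the times 4 of 10 stellate cell and fibroblast markers rose (none without either 24 h library or in the fit of all 12), with a median of 1.06. Of 9 macrophage markers 1 rose by edgeR and 5 by DESeq2, with a median of 1.25. Of 9 biliary markers Spp1 rose by 1.07 and Sox9 fell by 1.40, calls lost without any one of the TAA libraries, and 1 hepatocyte marker fell. The part of these cells was not tested.

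Whether a gene responded differently around tumours and after TAA was tested on the difference between its log2 fold changes, each against the control of its own stock, in a fit of all 12 libraries. Stock and preparation differ with the comparison and cannot be told apart from it. Sex, as far as Xist marks it, also differs with the comparison, and within the peritumoral group, where replicate 2 stood apart. Against the 24 h response, the peritumoral response was higher for 3 of the 10 genes and lower for none. Over all 14615 genes it was higher for 9.03% and lower for 12.1%. A difference between responses also holds the difference between the 2 controls. Mean levels of Nt5e were 6.71 CPM in untreated and 80.9 CPM in peritumoral hepatocytes, and 236 CPM in control livers and 85.8 CPM at 24 h. Those of Amotl2 were 29.7, 58.3, 57.9 and 56.3 CPM in the same order. Nt5e differed by 5.04 ± 0.85 (adjusted p = 0.00731), a call kept under each alternative run, although the difference was 5.76 without untreated replicate 1, Ccdc80 by 2.56 ± 0.59 (adjusted p = 0.0172) and Amotl2 by 1.01 ± 0.27 (adjusted p = 0.0268). Against the 48 h response, the peritumoral response was higher for 3 and lower for 2, where 6.71% of genes were higher and 8.57% lower. Nt5e was higher by 4.67 ± 0.84 (adjusted p = 0.0118), F3 by 2.18 ± 0.53 (adjusted p = 0.0268) and Amotl2 by 1.26 ± 0.27 (adjusted p = 0.0187). The 2 lower were Ctgf at -1.997 ± 0.39 (adjusted p = 0.0153) and Myof at -2.42 ± 0.68 (adjusted p = 0.0416), or -3.24 without peritumoral replicate 2. Apart from that of Nt5e against 24 h, each of these calls was lost with 1 or more single libraries left out, and the count against 24 h was 1 without 24 h replicate 1, 24 h replicate 2 or control replicate 1. Against 48 h it was 0 without 48 h replicate 1, 2 without 48 h replicate 2 or control replicate 2, and 3 without control replicate 1 or untreated replicate 1. For Axl the difference from 24 h was 0.73 ± 0.47 (95% interval -0.31 to 1.78, adjusted p = 0.283), and for Ankrd1 it was -0.49 ± 0.72 (-2.09 to 1.10, adjusted p = 0.657). From 48 h these 2 genes differed by -0.36 and -1.62, neither called. Uncalled too were the differences from 24 h of Ctgf at -0.69, F3 at 1.11 and Myof at 0.04, and that of Ccdc80 from 48 h at 1.33. Crim1 and Cyr61 passed neither test, with differences from 48 h of -1.01 ± 0.41 (-1.93 to -0.09, adjusted p = 0.1202) and 1.46 ± 0.51 (0.32 to 2.60, adjusted p = 0.0789). The calls on Amotl2, against both times, and on F3 were also lost without scaling factors and by limma. That on Myof was lost without scaling factors and with no count filter, and that on Ccdc80 by limma with 0.5 added.

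Across the 5 groups the order of mean levels was not the same for every gene. Between hepatocytes and livers, stock and preparation cannot be told apart from the group. Nor can sex, as far as Xist marks it, except that peritumoral replicate 2 held 9770 counts of Xist. For Ctgf and Myof the order from low to high was control, untreated, 24 h, peritumoral, 48 h, with no overlap between neighbours. Ankrd1 and Crim1 were low in control and untreated libraries, which overlapped, and high in the other 3 groups. Ankrd1 did not separate peritumoral from 24 h libraries, and in Crim1 the 24 h libraries overlapped with the peritumoral and with the 48 h ones, which did not overlap with each other. Axl went up in the order control, untreated, 24 h, 48 h, peritumoral, and Ccdc80 in the order untreated, control, 24 h, 48 h, peritumoral, with overlap of the last 2 groups in both. Cyr61 was lowest in untreated hepatocytes and then in control livers, while the 48 h, peritumoral and 24 h libraries overlapped. F3 was highest in peritumoral hepatocytes and then at 24 h, with overlap among the other 3 groups. For Amotl2 untreated hepatocytes were lowest at 29.7 ± 6.31 CPM, and the 24 h, control and peritumoral libraries overlapped. Nt5e was lowest in untreated hepatocytes at 6.71 ± 5.05 CPM (n = 3) and highest in control livers at 236 ± 17.4 CPM (n = 2).

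Per kilobase of exon, Cyr61 had the highest level of the 10 genes in each of the 5 groups, from 17.1 ± 7.53 CPM per kilobase in untreated hepatocytes to 76.5 ± 7.19 CPM per kilobase in livers at 24 h. Second to it came Amotl2 in untreated hepatocytes at 4.72 ± 1.003, Axl in peritumoral hepatocytes at 23.1 ± 10.3, Nt5e in control livers at 27.4 ± 2.02, and Ctgf at 24 h and 48 h at 10.7 ± 2.91 and 26.5 ± 0.37 CPM per kilobase. Myof, whose exons span 12603 bases, was the lowest in control livers at 0.13 ± 0.014 CPM per kilobase and reached 6.87 ± 0.49 at 48 h. Ankrd1 was the lowest per kilobase in both hepatocyte groups.

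The 10 genes varied together in hepatocytes. Over the 6 hepatocyte libraries, correlations between pairs of genes, on log2(RPM + 0.5), ran from 0.81 to 0.98 over 45 pairs with a median of 0.94, and each includes the group difference and the shared depth and cell makeup of a library. Over the 6 livers they ran from -0.87 to 0.996 with a median of 0.75, and the 9 negative ones were all those of Nt5e. Centred within hepatocytes and within livers, the closest pairs over 12 libraries were Ctgf with Ankrd1 at 0.98 and Ctgf with Myof at 0.97. Amotl2 was closest to Cyr61 at 0.96. RPM are without scaling factors, so these correlations also include the shift over all genes that such factors remove.

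**Figure D4:**
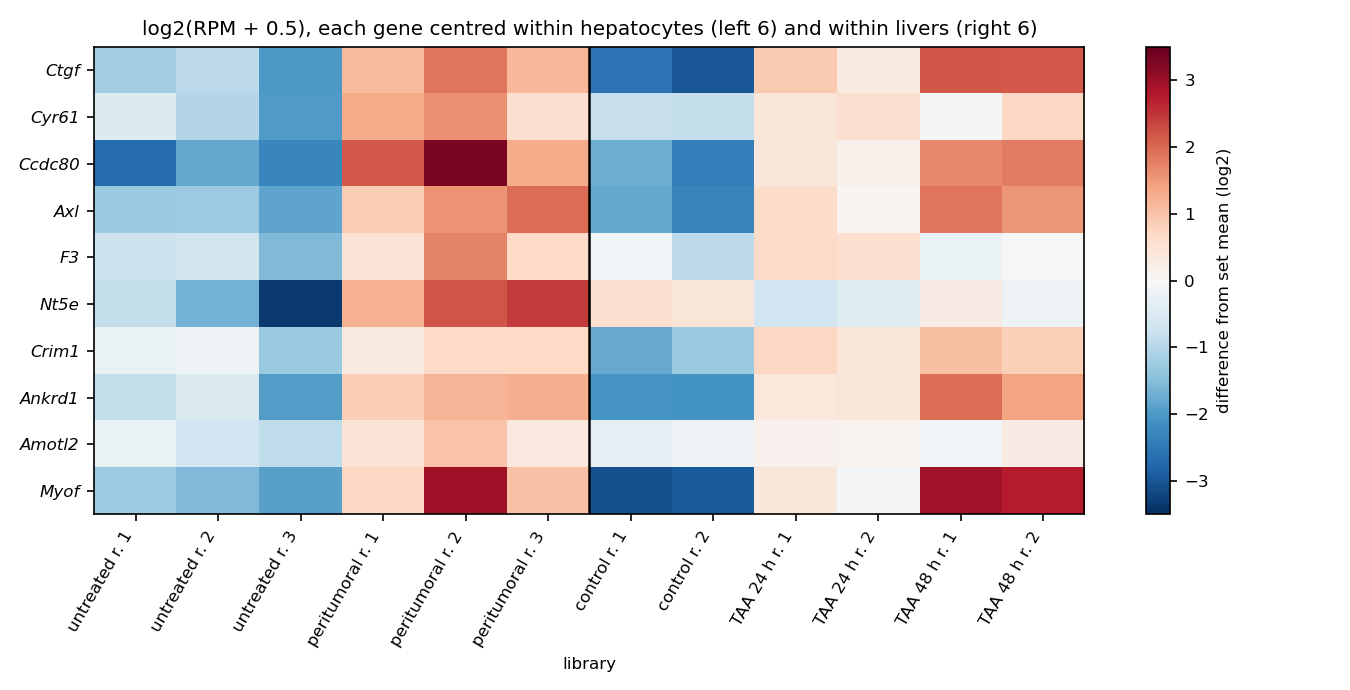
Log2(RPM + 0.5) of each gene (rows) in each library (columns), centred within the 6 hepatocyte and within the 6 liver libraries, with red above and blue below the mean. In the liver columns Ctgf, Ankrd1, Myof, Axl and Ccdc80 run from blue in controls to red at 48 h, whereas Amotl2 stays within -0.32 to 0.29, Cyr61 is blue in controls at -0.82 and -0.82 and highest in a 48 h library at 0.73, and Nt5e is red in controls at 0.58 and 0.43.

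Among genes tested in both fits, those whose centred profile over the 12 libraries was most like the mean of the 10 were Ssbp4 (r = 0.995), Itgb3 (r = 0.995), Arrb1 (r = 0.994), C1qtnf1 (r = 0.994) and Plekha2 (r = 0.993). Itgb3, the integrin beta chain, stood at 2.44 CPM in untreated and 22.7 CPM in peritumoral hepatocytes, and at 2.35, 7.92 and 14.1 CPM in control, 24 h and 48 h livers. Most like Ctgf alone were Lgals1 (r = 0.996), Pkm (r = 0.993) and Acta2 (r = 0.993), the last of which is also among the stellate cell markers. Lgals1 went from 2.51 CPM in control livers to 26.8 and 103 CPM after TAA, and from 6.72 to 47.4 CPM in hepatocytes. Most like Cyr61 were the immediate early genes Jun (r = 0.973), Atf3 (r = 0.971) and Fos (r = 0.968). Fos stood at 516 CPM in untreated and 1268 CPM in peritumoral hepatocytes, and at 918, 1072 and 909.6 CPM in control, 24 h and 48 h livers. All points share library depth and cell makeup. The profiles were on log2(RPM + 0.5), without scaling factors. The median over all genes was then 0.53 and 0.68 at 24 h and 48 h after TAA, and 0.23 around tumours. Each profile includes that shift.

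Of the other 12 genes of the signature, 10 could be tested in hepatocytes and 11 in livers. In peritumoral hepatocytes 19.0% of all genes rose. Of the 10 other signature genes 5 rose (8 in the fit of all 12 libraries), with a median of 2.0002. They included Igfbp3, which binds insulin-like growth factors, at 3.07 ± 0.25 (adjusted p = 0.00267), Rbms3, an RNA-binding protein, at 3.53 ± 0.37 (adjusted p = 0.00329), and the cytokine gene Tgfb2 at 5.26 ± 0.65 (adjusted p = 0.00423). At 24 h after TAA 36.4% of the 11 were called, against 41.8% of all genes. The rises were 4 of 11, namely Arhgef17 at 2.15 ± 0.33 (adjusted p = 0.00351), Rbms3 at 1.16 ± 0.28, the phosphatase gene Ptpn14 at 1.56 ± 0.38 and Tgfb2 at 1.88 ± 0.50. That count was 1 without 24 h replicate 1, 24 h replicate 2 or control replicate 2, 2 in the fit of all 12 libraries, 9 by limma and 10 without scaling factors. At 48 h 54.5% of the 11 were called, against 48.9% of all genes, and 5 rose (9 by limma or without scaling factors). Smallest in p among the rises were Igfbp3 at 2.15 ± 0.18 (adjusted p = 0.000369), Arhgef17 at 2.54 ± 0.33 and Rbms3 at 1.65 ± 0.28. The stress response gene Gadd45a fell by 1.57 ± 0.28 (adjusted p = 0.00442), a call lost by limma. Between the times Igfbp3 rose by 2.13 ± 0.18 (adjusted p = 0.0111), a call lost without either 24 h library (adjusted p = 0.0913 and 0.0931), while Gadd45a at -1.07 ± 0.28 and Nuak2 at -0.43 ± 0.18 did not pass. The peritumoral response exceeded the 24 h one for Igfbp3 by 2.95 ± 0.32 (adjusted p = 0.00216), Rbms3 by 2.24 ± 0.48 (adjusted p = 0.0139) and Tgfb2 by 3.24 ± 1.02 (adjusted p = 0.0485), and was lower for Dock5 at -0.80 ± 0.25 (adjusted p = 0.0452). Of these 4 the call on Igfbp3 held with each library left out. The peritumoral response exceeded the 48 h one for Rbms3 by 1.79 ± 0.48 (adjusted p = 0.0356), also lost with single libraries left out. Called against the 24 h and 48 h responses were 36.4% and 9.09% of the 11, where 21.1% and 15.3% of all genes were.

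Of the pathway's own components, Wwtr1, the gene of TAZ, stood at 21.9, 22.2 and 15.9 CPM in untreated and 30.5, 36.5 and 33.9 CPM in peritumoral hepatocytes, a rise of 0.75 ± 0.17 (adjusted p = 0.0221). It stood at 17.4 and 16.7 CPM in control livers, 34.5 and 37.3 CPM at 24 h and 29.5 and 37.0 CPM at 48 h, rises of 0.96 ± 0.16 (adjusted p = 0.00413) and 0.89 ± 0.16 (adjusted p = 0.00411). Treated libraries of Wwtr1 lay above their controls in all 3 comparisons. Yap1 went around tumours from 106, 109.9 and 87.5 CPM to 80.7, 50.7 and 63.0 CPM, and fell by 0.65 ± 0.19 (adjusted p = 0.0430). After TAA Yap1 did not pass, at 0.12 ± 0.12 (adjusted p = 0.428) and -0.11 ± 0.12 (adjusted p = 0.465). In RPM, without scaling factors, its TAA libraries lay above both controls. They stood at 114 and 102 at 24 h and 111 and 99.4 at 48 h, against 66.1 and 72.6 RPM. The peritumoral calls on Wwtr1 and Yap1 were lost without peritumoral replicate 2 or 3 and without untreated replicate 1 or 2, that on Yap1 also without untreated replicate 3 (adjusted p = 0.0505 to 0.0837 and 0.0587 to 0.184). Both were lost without scaling factors and by limma, and that on Yap1 also with RLE factors, with no count filter and with the replicate block. In RPM, without scaling factors, the hepatocyte groups of Yap1 overlapped, with 84.0 in peritumoral replicate 1 and 75.7 in untreated replicate 3. Of 22 Hippo components, Lats2 and Ptpn14 among them as in the signature, 8 rose and 1 fell around tumours, or 40.9% called against 29.2% of all genes, with a median of 0.36. The smallest p-values were those of Amotl1, a relative of Amotl2, at 2.50 ± 0.27 (adjusted p = 0.00331), the kinase gene Map4k4 at 2.77 ± 0.45 (adjusted p = 0.00746) and Tead2 at 3.79 ± 0.72 (adjusted p = 0.0119), the last lost without untreated replicate 1 or 2. The count of rises was 2 without untreated replicate 1 or 2 and 5 without peritumoral replicate 2 or 3. At 24 h after TAA 7 rose and 3 fell (3 and 0 without 24 h replicate 1, 4 and 2 without control replicate 2, and 3 and 1 in the fit of all 12 libraries), which makes 45.5% called against 41.8% of all genes. By limma or without scaling factors 14 rose and none fell. Smallest in p were Tead1 at 0.94 ± 0.15 (adjusted p = 0.00348), Wwtr1, and Amot at 0.98 ± 0.18 (adjusted p = 0.00658). At 48 h 9 rose and 3 fell, or 54.5% called against 48.9% of all genes, with Map4k4 at 1.55 ± 0.19 (adjusted p = 0.00116), Wwtr1 and Mob1b at -0.73 ± 0.13 (adjusted p = 0.00441). Scaled by library totals alone, 19 rose and none fell, and by limma 18 rose and none fell. Between the times none of the 22 passed by edgeR (2 higher and 1 lower at an unadjusted p under 0.05) and 1 passed by DESeq2, with Tead4 at 1.87 ± 0.49 (adjusted p = 0.0711), Map4k4 at 0.64 ± 0.19 and Wwc1 at -0.30 ± 0.11 the smallest in p. The peritumoral response differed from that at 24 h for Vgll4 by 1.17 ± 0.27 (adjusted p = 0.0169), for Amot by -1.09 ± 0.28 (adjusted p = 0.0260), for Yap1 by -0.88 ± 0.27 (adjusted p = 0.0424) and for Map4k4 by 1.74 ± 0.55 (adjusted p = 0.0491). Against 48 h, Vgll4 differed by 1.18 ± 0.27 (adjusted p = 0.0224) and Amot by -1.01 ± 0.28 (adjusted p = 0.0414), while Tead2 did not pass at 2.38 ± 0.95 (adjusted p = 0.113). Each of these calls on a difference was lost with single libraries left out.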

How the data were processed

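Polyadenylated RNA of 12 libraries, prepared with a stranded kit per the labels' protocols, was analysed from the table of raw counts per gene that the authors deposited (41128 genes). They also deposited RPM values for 17311 genes, which equal each count scaled to its library total. STAR and DESeq2 and the builds mm10 and GRCm38 are named per the submitters' processing notes, without versions or roles. No source used here gives the annotation, the counter or its strand setting, and overlapping genes may share reads. Groups and replicate numbers came from the sample titles. No library was counted as a duplicate.

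The test was edgeR's two-sided quasi-likelihood F test (edgeR 4.0.16 under R 4.3.3), with TMM factors and the filterByExpr minimums of 10 per library and 15 in total. It was also run on simulated counts with the same spread setting for every gene. These are simpler than the libraries here, and no conclusion is drawn from them. P-values were adjusted over all genes tested by Benjamini-Hochberg, with a threshold of 0.05. The 6 hepatocyte libraries formed 1 fit (13442 genes), the 6 livers another (13497), and all 12 another for differences between responses (14615). The biological coefficient of variation was 0.358, 0.188 and 0.317. Levels use TMM factors over 12 libraries (0.754 to 1.40). Intervals are 95% intervals from the fit. Positions and exon lengths are from GENCODE M21 on GRCm38, which held 40254 of the IDs (97.9%), and 8 of 10 members under the same symbol (Ctgf and Cyr61 as Ccn2 and Ccn1). Of the marker genes, 2 were not found by symbol. Promoters are RefSeq's.

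Alternatives were RLE and no factors, no count filter, DESeq2 1.42.0, limma 3.58.1 on log2 RPM with 0.5 or 0.1 added, the replicate number as a block, all 12 libraries in 1 fit, and each library left out. Named were the 10 members, Yap1, Wwtr1, Lats1 and Lats2, per comparison the 3 smallest p among the other signature genes and among the Hippo components, and the genes of most similar profile. The rest were chosen after their values were seen. They were Xist, Ptpn14 and Tgfb2 at 24 h, Gadd45a at 48 h, Dock5, the 4 Hippo differences, Cyp2e1, Cd3e, Spp1 and Sox9. The single stellate cell markers named for peritumoral replicate 2 were chosen in this way too. The members and lists were chosen with earlier results of these data known.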

Additional observations from a re-analysis of the deposited data

Results flagged for a closer look

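The responses of 5 of the 10 target genes differed between the 2 times after TAA, tested as 48 h against 24 h in edgeR's quasi-likelihood test, where the shared controls cancel. On the log2 scale the later response was higher by 2.50 for Myof, 1.34 for Ctgf, 1.27 for Ccdc80, 1.17 for Ankrd1 and 1.13 for Axl. Both 48 h libraries lay above both 24 h libraries for each of the 5. As given above, 4 of these calls were lost with any 1 of the 4 TAA libraries left out, and that on Myof without either 24 h library (adjusted p = 0.0514 and 0.0857). No group held 4 libraries or more, so single libraries were not screened as far from the others.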

How the results depend on the processing

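Of 940 values of single target genes under alternatives, 805 kept their direction and side of the threshold, 100 lost a call, 17 gained one and 18 changed sign. In peritumoral hepatocytes and at 24 h and 48 h after TAA, the number of target genes called stayed within 1.5 times of 10, 8 and 7 under each alternative run. Leaving out 1 library gave 7 to 9, 7 to 8 and 7 to 8 genes called. Between 48 h and 24 h, where 5 were called, leaving out 1 library gave 0 to 6, all 12 libraries in 1 fit gave 0, limma with 0.1 and 0.5 added gave 0 and 1, and no count filter gave 3. For the difference from the 24 h response, with 3 called, leaving out 1 library gave 1 to 4 and limma with 0.5 added gave 1. For that from the 48 h response, with 5 called, leaving out 1 library gave 0 to 7, limma with 0.1 or 0.5 added gave 3 and no factors gave 2.

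Values that changed sign under scaling or limma were uncalled. Amotl2 moved to 0.36, 0.35 and 0.35 at 24 h, and to 0.33, 0.32 and 0.34 at 48 h, with limma (0.1 added), limma (0.5 added) and no factors, and F3 at 48 h to 0.41, 0.36 and 0.36, or 0.15 without control replicate 1. Cyr61 between the times, -0.31, ran from -0.81 without 48 h replicate 2 to 0.055 without 48 h replicate 1. The difference of Myof from the 24 h response, 0.04, moved to -0.26 and -0.045 with limma (0.1 and 0.5 added) and -0.16 with the replicate block, and ran from -0.79 without peritumoral replicate 2 to 0.43 without peritumoral replicate 1. The cause was not tested.

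Without factors the median over all genes moved to 0.23 in peritumoral hepatocytes, and rises among called genes from 65.1% to 92.7%. Between the times it moved to 0.21, with rises from 67.7% to 87.6%. For the differences from the 24 h and 48 h responses it moved to -0.14 and -0.40, with 980 higher and 1253 lower genes becoming 541 and 1919 for the second, and with RLE factors to 0.11 for the first. Deviations of same-numbered libraries from their group means correlated at -0.22, 0.17 and 0.11 in hepatocytes and 0.02 to 0.03 in livers. With so few libraries a group, these values cannot tell whether the numbers pair libraries. With the replicate block 9, 8, 7, 4, 4 and 6 target genes were called in the 6 comparisons, against 10, 8, 7, 5, 3 and 5. With 2 libraries a liver group, a fit without 1 of them assumes that the lone library varies like the other groups. Counts of 4 in an untreated library and 7 in each control library limit the precision of Ankrd1.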
